A study of Homo sapiens with 6 samples.

Results

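The genes described here are 10 immediate early genes in libraries that carry the label T47D, 8 of which encode basic leucine zipper subunits of the AP-1 transcription factor or its ATF relatives. They are FOS, FOSB, FOSL1 and FOSL2 of the FOS family, JUN, JUNB and JUND of the JUN family, ATF3, the zinc finger factor EGR1 and the survival gene IER3. The members were chosen by symbol out of 61279 annotated genes, and 9 of the 10 passed the filter on low counts. FOSL1 did not pass it.

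Immediate early genes are transcribed within minutes of a growth factor, stress or cytokine signal, without new protein synthesis, and their mRNAs are short-lived. MAP kinases act on them through SRF and the ternary complex factors bound at CArG boxes, and through CREB, ATF and JUN proteins bound at related sites. JUN proteins bind DNA as dimers with each other or with FOS or ATF proteins, whereas FOS proteins need a JUN partner, so that the makeup of AP-1 depends on which subunits a cell has. In breast epithelium AP-1 is known for roles in proliferation, in the response to estrogen and in invasion.

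The study treated T47D, a hormone receptor–positive human breast cancer cell line, for 24 hours and asked how gene expression changed. Cells received DMSO, the solvent control, or 4 μmol/L MI503, an inhibitor of the interaction between menin and the MLL1 methyltransferase. The genotype label is WT, while the study describes the line as PIK3CA-mutant. All cells were grown in serum-containing medium, and there were 3 libraries per label, called biological replicates 1 to 3. Each library held 17404736 to 22168525 reads. A sample taken at 24 hours records a steady level of these genes and not their first response.

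The libraries did not match their shared cell line label in one respect that touches every comparison below. ESR1, which encodes the estrogen receptor that defines this line, was at 0 to 0.194 CPM (read counts scaled to library size) in the libraries labelled DMSO and at 210 to 296 CPM in those labelled MI503. KLK3, the gene of prostate-specific antigen, stood at 3673 to 3762 CPM in the DMSO-labelled libraries, and no read of it was found in the MI503-labelled ones. Of the luminal breast markers, 10 of 10 were higher under the MI503 label, and their summed level was 199 to 323 CPM against 10176 to 13044 CPM. Of the prostate markers, 9 of 9 were lower, and their summed level was 5851 to 7072 CPM against 119 to 131 CPM. Fibroblast markers summed to 30.1 to 53.9 CPM under the DMSO label and 77.4 to 120 CPM under the MI503 label, with PDGFRA at 0. Blood cell markers summed to at most 4.18 CPM, with PTPRC and CD3E at 0, and endothelial markers summed to 14.7 to 31.4 CPM under the DMSO label and at most 0.178 CPM under the MI503 label. Treatment and this difference between the libraries cannot be told apart here, so each result is given as a difference between labels.

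Upstream sequence is shown for the members whose level was lower under the MI503 label, FOS, JUN and EGR1, and for FOSB, the closest relative of FOS, which did not pass the test. Each line holds the 116 bases from -120 to -5 relative to the RefSeq start site, 5′ to 3′ on the gene's strand, from RefSeq's GRCh38.p14 annotation. They lie at chr14:75278708-75278823 (+) for FOS, chr19:45467876-45467991 (+) for FOSB, chr1:58784052-58784167 (-) for JUN and chr5:138465359-138465474 (+) for EGR1. Capitals mark the letters of a motif that was searched for.
FOS: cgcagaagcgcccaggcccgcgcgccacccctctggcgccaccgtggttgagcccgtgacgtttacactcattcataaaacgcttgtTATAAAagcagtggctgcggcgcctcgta
FOSB: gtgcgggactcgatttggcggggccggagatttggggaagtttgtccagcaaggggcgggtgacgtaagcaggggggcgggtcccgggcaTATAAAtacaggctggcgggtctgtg
JUN: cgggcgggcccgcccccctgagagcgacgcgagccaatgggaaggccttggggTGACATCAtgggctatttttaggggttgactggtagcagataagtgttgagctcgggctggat
EGR1: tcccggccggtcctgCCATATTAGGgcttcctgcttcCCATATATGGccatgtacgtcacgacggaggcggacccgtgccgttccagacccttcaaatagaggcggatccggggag

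EGR1 had 2 CArG boxes in this stretch, at -105 to -96 and at -83 to -74, and the CArG box was present in 1.29% of the 35116 promoters of the table, each a window of 250 bases before and 50 after a start site. FOS and FOSB each had the TATA letters TATAAA close to the start, at -33 to -28 and at -30 to -25, as had JUNB at -31 to -26, and 11.5% of all promoters held these letters. JUN had TGACATCA at -67 to -60. This is a match to TGACNTCA, a variant of the CRE that was added to the search after the sequences were seen, and it was found in 7.72% of promoters. The full CRE, TGACGTCA, was in the JUND window at -200 to -193 and in 1.85% of promoters, and the JUND match also counts as a match to the variant. The upstream ATF3 window held the variant at -123 to -116, and the other ATF3 window held TATAAA at -230 to -225. Outside the stretches shown, EGR1 had the EGR site GCGNGGGCG at -198 to -190, which 9.43% of promoters held, and FOSB had an NF-kB site at -228 to -220, which 12.3% held. The AP-1 site TGANTCA, found in 7.71% of promoters, was present in the FOSL2 window only among the members, at 4 to 10 bases past the start. Both strands were searched, and 8 of the 10 members had an entry in the table, in 9 windows because ATF3 has 2. IER3 and FOSL1 had none. A match is a string of letters and not a shown binding site. Sequence outside the windows was not searched, so a motif without a match may still lie further upstream of a member.

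Of the 9 members tested, 1 was higher and 3 were lower under the MI503 label at an adjusted p under 0.05 (edgeR's quasi-likelihood test, Benjamini-Hochberg over 16442 genes), and 5 did not pass. Over all genes tested, 31.7% were higher and 31.2% were lower, so the members were called no more often than other genes. The CPM of the labels did not overlap for the same 4 members of 9, against 68.7% of all genes tested. With a log2 fold change beyond 2 in addition, IER3 was higher, where 12.6% of all genes were, and FOS was lower, where 11.7% were. The median log2 fold change of the 9 members was 0.11, beside -0.004 for all genes tested, and its median size was 0.70 beside 0.90.

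**Figure D1:**
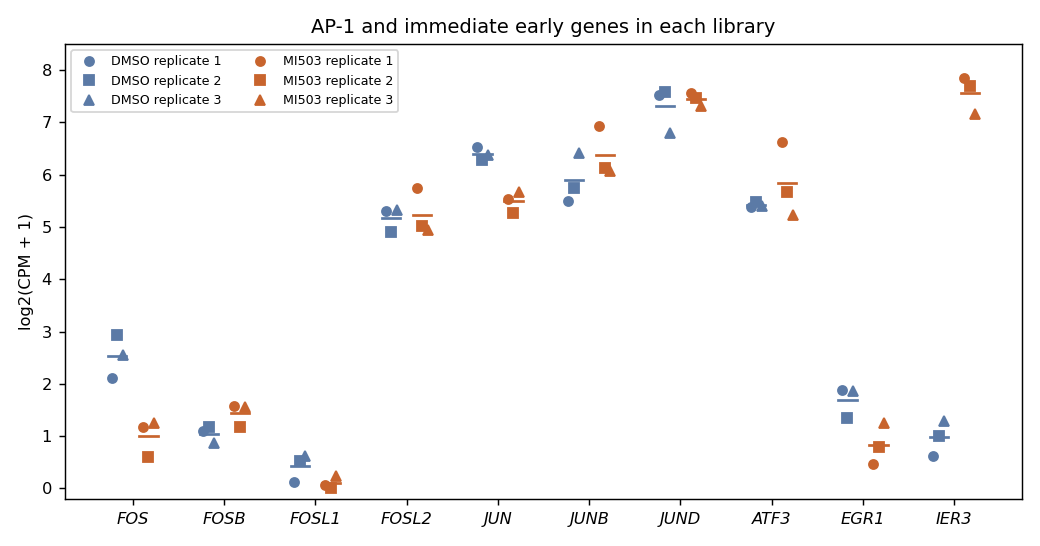
Level of each member, on the log2(CPM + 1) scale, by library, with the mean of a label as a line. Blue marks are libraries labelled DMSO, orange marks are libraries labelled MI503, and the marker shape gives the replicate number. IER3 stands far apart between the labels, FOS, JUN and EGR1 are lower in every library labelled MI503, and the other members overlap.

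IER3 was almost silent in the libraries labelled DMSO and, per length, the most abundant member in those labelled MI503. It encodes a short-lived protein that modulates apoptosis and ERK signaling and is induced by NF-kB, p53 and growth factors. The gene (ENSG00000137331) lies at chr6:30743199-30744548 on the minus strand. Its level was 0.543, 1.02 and 1.46 CPM in DMSO replicates 1, 2 and 3, from 12, 21 and 32 reads. It was 229, 207 and 142 CPM in the MI503 replicates, from 4701, 3963 and 2386 reads. Every library labelled MI503 was far above every library labelled DMSO. The means were 1.01 ± 0.458 and 193 ± 45.5 CPM (SD, n = 3 each), a 192-fold difference with a log2 fold change of 7.57 (SE 0.35, adjusted p = 1.16e-07, edgeR). Among the alternatives, the log2 fold change lay between 7.27 and 7.95.

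IER3 shares its locus with 2 annotated long noncoding RNAs on the plus strand. IER3-AS1 was lower where IER3 was higher, at 5.04 ± 1.14 CPM under the DMSO label and 0.0907 ± 0.037 CPM under the MI503 label (SD, n = 3 each), and its log2 fold change was -5.73 (SE 0.50). HCG20 was at most 0.136 CPM in any library. IER3-201 took 97% of the gene's TPM under the DMSO label and 97.4% under the MI503 label, TPM being a level per transcript length. Whether reads were counted by strand is not given in the sources used here, so reads of a gene and of its antisense partner cannot be told apart.

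FOS, the founding FOS subunit (ENSG00000170345, chr14:75278826-75282230, plus strand), was at a low level in every library and was lower under the MI503 label. It was at 3.35, 6.68 and 4.88 CPM in the DMSO replicates, from 74, 138 and 107 reads. It was at 1.27, 0.523 and 1.37 CPM in the MI503 replicates, from 26, 10 and 23 reads. The highest MI503 library was below the lowest DMSO library. The means were 4.97 ± 1.67 and 1.05 ± 0.461 CPM (SD, n = 3 each), and the log2 fold change was -2.24 (SE 0.45, adjusted p = 0.00175, edgeR). The call held under every alternative. The size did not stay beyond 2, since the log2 fold change was -1.97 without DMSO replicate 2 and -1.88 without MI503 replicate 2.

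FOSB, which encodes the FOS relative known for its stable neuronal splice form, was also rare and did not pass the test. It was at 1.13, 1.26 and 0.821 CPM in the DMSO replicates and at 2.00, 1.26 and 1.96 CPM in the MI503 replicates. Replicate 2 of each label stood at the same level, and the labels overlapped. The log2 fold change was 0.70 (SE 0.40, adjusted p = 0.158, edgeR). FOSB lies over ERCC1, a DNA repair gene on the opposite strand, which was higher under the MI503 label, at 59.7 ± 0.733 CPM against 35.3 ± 3.70 CPM (SD, n = 3 each, log2 fold change 0.76, SE 0.15). With 18 to 41 reads a library for FOSB, the part of ERCC1 reads in its level was not tested.

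FOSL1, which encodes FRA1, the FOS protein linked to invasive and basal breast cancer cells, was near the limit of detection. It had 2, 9 and 12 reads in the DMSO replicates and 1, 0 and 3 in the MI503 replicates, and the labels overlapped in CPM. Pooled over libraries, 23 reads against 4 gave a ratio of 5.46 (exact binomial 95% interval 1.87 to 21.7, which covers counting error only). In a fit without the filter on low counts, its log2 fold change was -2.18 (SE 1.09, adjusted p = 0.105, edgeR), and with DESeq2 the adjusted p was 0.197.

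FOSL2, which encodes FRA2, was the main FOS family transcript in every library and showed no difference that passed the test. It was at 38.4, 29.1 and 38.9 CPM in the DMSO replicates and at 52.8, 31.5 and 29.6 CPM in the MI503 replicates. MI503 replicate 1 was the highest of the 6 libraries and MI503 replicate 3 was among the lowest. The log2 fold change was 0.10 (SE 0.24, adjusted p = 0.741, edgeR), and its sign changed under 3 alternatives. FOSL2-201 took 95% ± 2.61 of the gene's TPM under the DMSO label and 97.4% ± 1.33 under the MI503 label (SD, n = 3 each), and the antisense FOSL2-AS1 was at most 0.475 CPM. A further long noncoding RNA overlaps FOSL2 on its own strand.

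JUN, the AP-1 subunit that activates its own promoter (ENSG00000177606, chr1:58776845-58784048, minus strand), was lower under the MI503 label at a depth that made the estimate firm. It was at 92.0, 76.7 and 81.8 CPM in the DMSO replicates and at 45.6, 37.6 and 49.6 CPM in the MI503 replicates, from at least 719 reads a library. The labels did not overlap. The means were 83.5 ± 7.75 and 44.3 ± 6.11 CPM (SD, n = 3 each), and the log2 fold change was -0.92 (SE 0.16, adjusted p = 0.000795, edgeR), with a range of -1.01 to -0.78 over the alternatives. Salmon assigned 66.7% ± 1.08 of JUN TPM under the DMSO label, and 72.6% ± 4.05 under the MI503 label (SD, n = 3 each), to JUN-202, a transcript of 4 exons annotated as a target of nonsense-mediated decay. The rest went to JUN-201, the intronless coding transcript.

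JUNB, a subunit often opposed to JUN in proliferation, did not pass the test and varied widely among replicates. It was at 44.3, 52.7 and 84.8 CPM in the DMSO replicates and at 121, 69.1 and 66.1 CPM in the MI503 replicates. DMSO replicate 3 stood within the range of the MI503 label. The log2 fold change was 0.49 (SE 0.29, adjusted p = 0.166, edgeR). It was 0.82 with an adjusted p of 0.0251 in edgeR without DMSO replicate 3, and 0.20 with an adjusted p of 0.565 without MI503 replicate 1. JUNB, a gene of 1 exon on chromosome 19, overlaps HOOK2 on the other strand. HOOK2 was at 66.5, 68.6 and 94.0 CPM in the DMSO replicates and at 138, 77.7 and 72.0 CPM in the MI503 replicates, the same order of libraries within each label as JUNB. Centred within each label, log2(CPM + 1) of the pair had r = 0.95 over 6 libraries, as a description. The part of shared reads in this likeness was not tested.

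JUND, the subunit that is least dependent on induction and that binds menin, was the most abundant AP-1 gene by TPM in both labels. It was at 184, 192 and 111 CPM in the DMSO replicates and at 189, 176 and 158 CPM in the MI503 replicates. DMSO replicate 3 was the lowest library. The log2 fold change was 0.11 (SE 0.21, adjusted p = 0.682, edgeR) and -0.11 without DMSO replicate 3. JUND-201 took 81.2% ± 22.2 of the gene's TPM under the DMSO label and 68.7% ± 12.4 under the MI503 label (SD, n = 3 each), and the short JUND-202 took the rest.

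ATF3, a stress-induced repressor and AP-1 partner downstream of ATF4, had a narrow range of CPM among the libraries labelled DMSO and a wide one among those labelled MI503. It was at 40.5, 43.9 and 41.3 CPM in the DMSO replicates and at 97.4, 50.0 and 36.6 CPM in the MI503 replicates. MI503 replicate 1 was above all other libraries and MI503 replicate 3 below all others. Per length, the DMSO replicates were further apart for the gene as a whole, at 47, 41.1 and 31.4 TPM. The log2 fold change was 0.55 (SE 0.31, adjusted p = 0.143, edgeR). It was 0.10 without MI503 replicate 1 (adjusted p = 0.681, edgeR) and 0.83 without MI503 replicate 3 (adjusted p = 0.0238, edgeR). The order of the MI503 replicates was also that of DDIT3, the stress factor CHOP, at 545, 238 and 146 CPM, and of HSPA5, an endoplasmic reticulum chaperone, at 4722, 2890 and 2350 CPM, both chosen after their values were seen. It was not that of every stress gene, since XBP1 ran the other way, at 997, 1326 and 1390 CPM, and STC2 was highest in MI503 replicate 3. ATF3-202 took 77.9% ± 16.3 of the gene's TPM under the DMSO label and 67.6% ± 12.6 under the MI503 label (SD, n = 3 each). It starts at chr1:212608761, away from both ATF3 windows of the promoter table, and the 2 transcripts with the most upstream start had no reads in any library.

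EGR1, a zinc finger factor known to be induced by ERK signaling (ENSG00000120738, chr5:138465479-138469303, plus strand), was rare and was lower under the MI503 label. It was at 2.67, 1.55 and 2.64 CPM in the DMSO replicates, from 59, 32 and 58 reads. It was at 0.390, 0.732 and 1.37 CPM in the MI503 replicates, from 8, 14 and 23 reads. The labels did not overlap, although MI503 replicate 3 came close to DMSO replicate 2. The means were 2.29 ± 0.639 and 0.830 ± 0.495 CPM (SD, n = 3 each), and the log2 fold change was -1.47 (SE 0.51, adjusted p = 0.0279, edgeR). The call was lost without DMSO replicate 1 (adjusted p = 0.0763), DMSO replicate 3 (0.0631), MI503 replicate 1 (0.0963) or MI503 replicate 2 (0.101), all from edgeR.

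**Figure D2:**
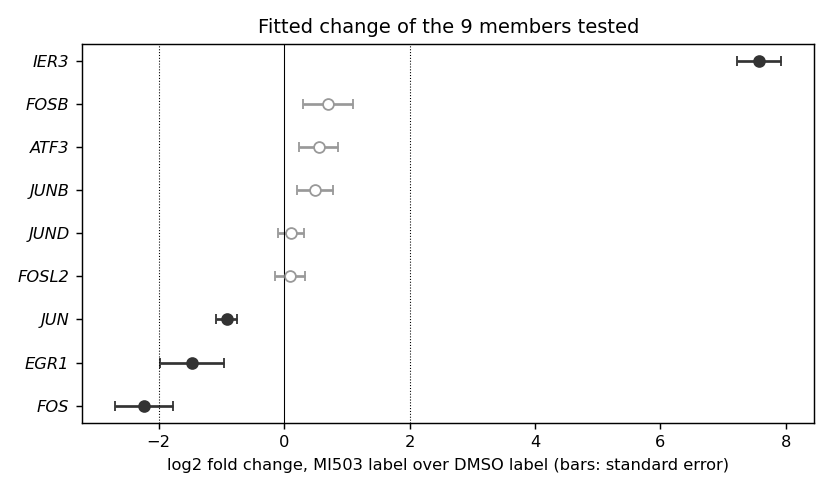
Fitted log2 fold change, MI503 label over DMSO label, of the 9 members tested, with standard errors as bars. Filled points passed the test at an adjusted p under 0.05, open points did not, and dotted lines mark a log2 fold change of 2 in either direction. IER3 at 7.57 is the single filled point to the right of 0.

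Set side by side per length, the members spanned a wide range of levels. With the DMSO label, mean TPM was 141 ± 66.4 for JUND, 45.6 ± 14.2 for JUNB, 39.9 ± 7.88 for ATF3, 38.1 ± 5.79 for JUN and 7.22 ± 1.13 for FOSL2 (SD, n = 3 each). The ranges of JUNB, ATF3 and JUN overlapped their neighbours in that order, and JUND was above them in every library. The remaining genes were FOS at 4.02 ± 0.600, IER3 at 1.29 ± 0.550, EGR1 at 1.02 ± 0.310, FOSB at 0.540 ± 0.108 and FOSL1 at 0.395 ± 0.266 TPM. With the MI503 label, IER3 moved from seventh to first at 235 ± 55.4 TPM, and its range overlapped that of JUND at 157 ± 33.7 TPM. FOS at 0.874 ± 0.172 TPM overlapped in range with FOSB at 0.691 ± 0.030 TPM.

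By share of the FOS family's summed TPM, FOS made up 29.0% to 40.7% of the transcripts in the libraries labelled DMSO and 7.96% to 13.9% in those labelled MI503. FOSL2 made up 51.6% to 66.3% and 74.2% to 85.6%. Within the JUN family, JUN made up 15.3% to 19.9% under the DMSO label and 6.32% to 10.7% under the MI503 label. FOSB made up 3.56% to 5.18% and 5.85% to 9.77%. The shares of FOS, FOSB, FOSL2 and JUN did not overlap between labels, while those of FOSL1, JUNB and JUND did. The shares within a family have a fixed sum, so a lower share of FOS raises the summed share of the others. FOSL2 itself was at 5.97 to 8.18 TPM under the DMSO label and 5.51 to 9.66 TPM under the MI503 label, which overlapped. FOSB was at 0.440 to 0.655 and 0.660 to 0.720 TPM, which did not, although its CPM overlapped. This gap was narrow, and the TPM and share of FOSB rested on 18 to 41 reads a library. In DMSO replicate 3 the transcript FOSB-207 held 3.25 reads and 59.4% of the gene's TPM. In MI503 replicate 2 it held 2.17 reads and 40.1%. Over all genes tested, the CPM of 68.7% did not overlap. Shares in other gene families were not tested. The JUN family summed to 179 to 293 TPM under the DMSO label and 195 to 261 TPM under the MI503 label, which overlapped. The FOS family summed to 11.6 to 12.6 and 7.37 to 11.3 TPM, which did not. By summed TPM, the JUN family was 14.2 to 35.4 times as abundant as the FOS family in a library.

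**Figure D3:**
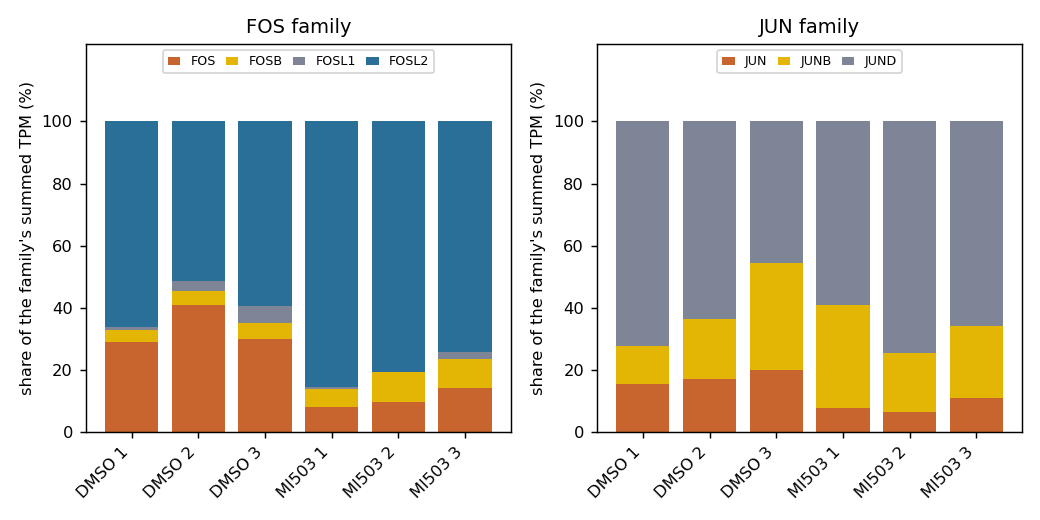
Share of each gene, in percent, in the summed TPM of the FOS family (left) and of the JUN family (right), with 1 bar per library. FOS takes 29.0% to 40.7% in the libraries labelled DMSO and at most 13.9% in those labelled MI503, and FOSL2 takes most of the family in all 6.

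Under the MI503 label, the spread among replicates was wider at the median for these genes than over all genes. Of the 10 members, 6 averaged 10 CPM or more. Their median SD of log2(CPM + 1) over 3 libraries was 0.28 under the DMSO label and 0.41 under the MI503 label. Over the 10449 genes tested at that level the medians were 0.21 and 0.17. IER3 reached that level only through the MI503 label, and its DMSO SD of 0.34 rested on 12 to 32 reads. The DMSO median of 0.28 lay between that value and the 0.23 of FOSL2, so much of its distance from 0.21 rested on IER3. With the MI503 label the SD was 0.71 for ATF3, 0.48 for JUNB, 0.45 for FOSL2 and 0.36 for IER3, larger than in 99.1%, 95.1%, 93.8% and 88.7% of the 10449 genes. With the DMSO label it was 0.48 for JUNB and 0.44 for JUND, larger than in 90.4% and 87.7%, whereas ATF3 had an SD of 0.06, larger than in 6.12%. On the log2(TPM + 1) scale, ATF3 under the DMSO label had an SD of 0.29, larger than in 62.6%. JUND had 0.68 on that scale, larger than in 97.2%. The main transcript ATF3-202 was at 29.8, 30.8 and 30.0 TPM in DMSO replicates 1, 2 and 3. The short ATF3-210 was at 16.0, 8.58 and 0 TPM there, and the short JUND-202 at 92.0, 0 and 10.6 TPM. The narrow spread of ATF3 thus held for its CPM and for ATF3-202, and not for the TPM of the gene. MI503 replicate 1 was the highest library of its label for 6 of the 10 members and MI503 replicate 3 for the other 4. The lowest was MI503 replicate 3 for 5 members, replicate 2 for 4 and replicate 1 for 1. Mitochondrial genes took 5.34%, 3.54% and 2.84% of reads in MI503 replicates 1, 2 and 3. They took 3.78%, 1.38% and 7.18% in DMSO replicates 1, 2 and 3. The members as a whole took 0.0384% to 0.0426% of reads under the DMSO label and 0.0689%, 0.0555% and 0.0474% in MI503 replicates 1, 2 and 3. The part of a library in these spreads was not tested.

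**Figure D4:**
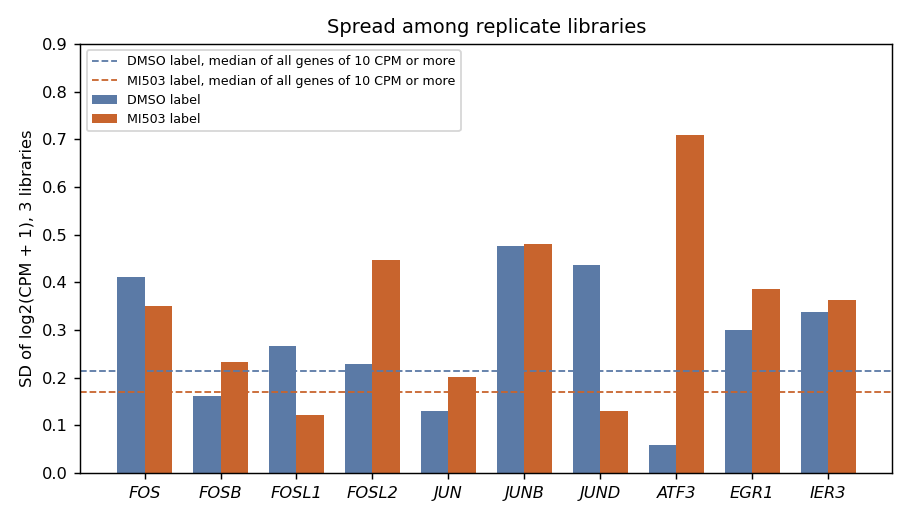
SD of log2(CPM + 1) over the 3 libraries of a label for each member, under the DMSO label in blue and the MI503 label in orange. Dashed lines give the median SD of the 10449 genes that averaged 10 CPM or more, 0.21 and 0.17. On this CPM scale ATF3 has the lowest DMSO bar and the highest MI503 bar.

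Over the 6 libraries, with label means removed, the members did not follow FOS as a group. Pearson's r of log2(CPM + 1) with FOS was 0.74 for FOSL1 and 0.63 for FOSB, between -0.09 and 0.32 for JUNB, ATF3, IER3, JUN, JUND and FOSL2, and -0.31 for EGR1. Among 37 other immediate early genes the median r was 0.10, and 3 had an r over 0.5, which were IER5, PPP1R15A and GEM. The genes most like FOS were SERF2, TMEM160, HES6, CYB5R1 and SNRNP40, with r of 0.98 to 0.99, out of 10449 genes of which 77 had an r over 0.9. ATF3 and FOSL2 had r = 0.83 and ATF3 and EGR1 had r = -0.80. The values are descriptions over 6 libraries that share 2 label means, and FOS rested on 10 to 138 reads a library.

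Other immediate early genes were more often higher than lower. Of 37 tested from a list of 42, 18 were higher and 6 lower, and 13 did not pass, with a median log2 fold change of 0.74 beside -0.004 for all genes. KLF6, a zinc finger factor, was at 12.9 ± 0.694 CPM under the DMSO label and 88.5 ± 14.0 CPM under the MI503 label (log2 fold change 2.77, SE 0.18). CCN1, a secreted matrix protein, was at 5.71 ± 0.821 and 42.3 ± 3.92 CPM, and TIPARP, an ADP-ribosyltransferase, at 4.29 ± 0.586 and 33.0 ± 4.27 CPM. GEM, a small GTPase, was at 0.0625 ± 0.0297 and 7.26 ± 2.13 CPM, with 1 to 2 reads in each library labelled DMSO. MYC, the growth regulator, was lower, at 340 ± 105 and 25.9 ± 9.42 CPM (log2 fold change -3.71, SE 0.32), as were the phosphatase gene DUSP2 at 22.1 ± 6.59 and 1.58 ± 0.728 CPM and the kinase gene PLK3 at 6.50 ± 2.19 and 0.773 ± 0.183 CPM. CXCL8, the neutrophil chemokine, was at 2.11 ± 2.02 and 0.107 ± 0.0108 CPM (SD, n = 3 each for all of these).

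Of 28 genes for SRF, ternary complex factors and MAP kinases, which act upstream of the members, 8 were higher and 9 were lower, close to the 31.7% and 31.2% of all genes tested, with a median log2 fold change of 0.12. SRF itself was at 73.7 ± 4.91 CPM under the DMSO label and 71.6 ± 15.2 CPM under the MI503 label and did not pass (log2 fold change -0.04, SE 0.18, adjusted p = 0.849, edgeR). ELK1, a ternary complex factor that acts with SRF, was higher at 124 ± 11.8 against 50.7 ± 0.679 CPM. MAPK3, which encodes ERK1, was higher with a log2 fold change of 0.75 (SE 0.15). MAPK8, which encodes the JUN kinase JNK1, was lower with a log2 fold change of -0.56 (SE 0.19, adjusted p = 0.0278, edgeR). Of the p38 genes, MAPK13 and MAPK14 were higher (2.50 and 1.13) and MAPK12 was lower (-3.18), while MAPKAPK2, a kinase downstream of p38, was higher (0.79). The kinase genes MAP2K3 and MAP2K4 were lower (-1.80 and -1.01). RPS6KA3, which encodes the ERK-activated kinase RSK2, was at 45.1 ± 6.92 CPM under the DMSO label and had no read in any library labelled MI503, at least 926-fold lower against a floor of 3 reads over the label.

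Among 22 other bZIP partners tested, 9 were higher and 5 were lower, beside 31.7% and 31.2% of all genes tested. Their median log2 fold change was 0.38. DDIT3 was at 23.6 ± 11.3 CPM under the DMSO label and 310 ± 209 CPM under the MI503 label, and CEBPB, a leucine zipper factor of the acute phase response, at 81.2 ± 26.8 and 223 ± 80.8 CPM. CREB5 and BATF were higher from levels under 1 CPM. MAF was lower, at 83.6 ± 47.5 and 2.23 ± 0.541 CPM, and so were ATF5 and CREM, with log2 fold changes of -1.48 and -1.07. Of 15 repressors of AP-1 and immediate early transcription, 5 were higher and 3 were lower, beside the same shares of all genes. Their median log2 fold change was 0.33. NAB2, which encodes a corepressor that EGR1 induces and that binds it, was at 8.96 ± 1.83 and 118 ± 47 CPM (SD, n = 3 each) while EGR1 was lower. NAB1, SIN3A and the ubiquitin ligase gene COP1 were also higher (log2 fold changes 1.25, 0.87 and 0.61), and NCOR1, HDAC2 and HDAC1 were lower (-1.80, -1.56 and -0.95).

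Genes that AP-1 and ERK signaling are known to drive were counted in separate lists, beside 31.7% higher and 31.2% lower over all genes tested. Of 16 AP-1 target genes tested from a list of 29, 9 were higher and 2 lower, and 5 did not pass, with a median log2 fold change of 1.19. KRT80, a keratin, was at 3.39 ± 0.948 CPM under the DMSO label and 110 ± 9.94 CPM under the MI503 label. TIMP1, CD44 and TGFB1 were under 0.3 CPM in every library labelled DMSO and at 32.3 ± 2.73, 16.7 ± 0.584 and 5.94 ± 1.55 CPM under the MI503 label. MMP7, a matrix metalloproteinase, was at 9.48 ± 2.23 and 0.0570 ± 0.0595 CPM, and LAMB3 at 6.85 ± 0.901 and 3.79 ± 1.33 CPM. MMP2, MMP3, SPRR1A and IL6 had no reads in any library. Of 18 ERK output and feedback genes tested from a list of 23, 5 were higher and 7 were lower, with a median log2 fold change of -0.49. AREG, which encodes an EGFR ligand, was at 0.0323 ± 0.0559 and 36.3 ± 7.70 CPM, and the ephrin receptor gene EPHA4 had no read under the DMSO label and was at 8.65 ± 1.81 CPM under the MI503 label. SPRY2 and PHLDA1 were higher (log2 fold changes 2.42 and 3.13), and PHLDA2, EPHA2, LIF and the ERK phosphatase gene DUSP4 were lower (-2.43, -2.17, -1.99 and -0.99). CCND1, which encodes cyclin D1, was at 372 ± 66.3 and 268 ± 85.9 CPM (SD, n = 3 each) and did not pass (log2 fold change -0.47, SE 0.24, adjusted p = 0.112, edgeR).

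**Figure D5:**
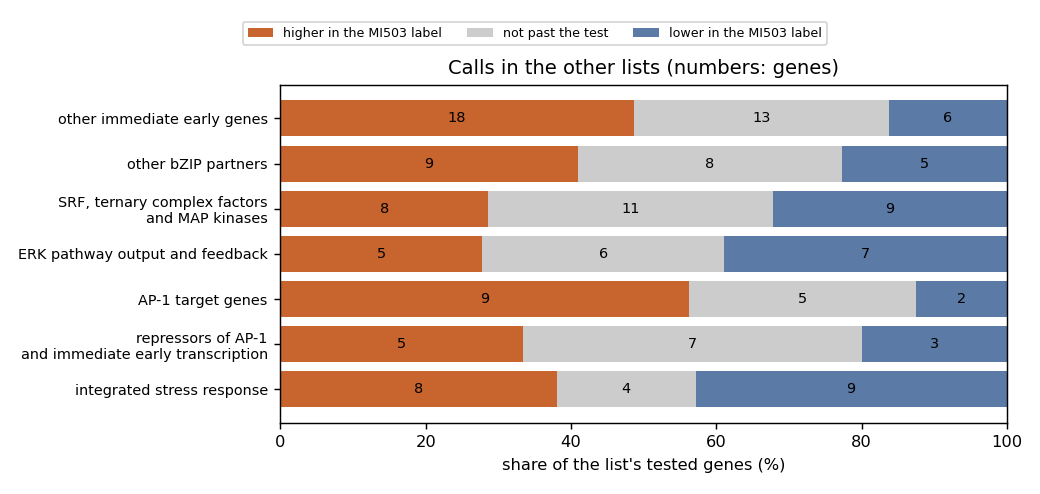
Share, in percent, of the tested genes of 7 other lists that were higher (orange), lower (blue) or not past the test (grey) under the MI503 label, with the number of genes in each bar. Other immediate early genes have 18 higher and 6 lower, and the lists of upstream kinases, ERK output and the integrated stress response have more lower than higher. Over all genes tested, 31.7% were higher and 31.2% were lower.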

How the data were processed

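Total RNA was sequenced in 6 libraries labelled as T47D, 3 labelled DMSO and 3 labelled MI503. Per the study's methods, the authors quantified transcripts with salmon (Illumina DRAGEN). They deposited estimated counts of reads per transcript, without normalization, and TPM, which salmon scales to transcript length within each library. The submitters' processing notes name the builds hg38 and GRCh38.p13. Not given in the sources used here are the annotation release, the salmon version and the settings for strand and bias.

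Transcript identifiers without version were matched to GENCODE release 44 (229321 of 232117, 98.8%), and estimated counts were summed to 61279 genes and rounded. Counts were scaled by TMM (factors 0.934 to 1.053) to CPM. The labels were compared with edgeR 4.0.16 (R 4.3.3; filterByExpr, glmQLFit, glmQLFTest, Benjamini-Hochberg over 16442 genes), with a call at an adjusted p under 0.05 and a second rule, that of the study, with a log2 fold change beyond 2. The standard error is the log2 fold change over the root of the F statistic. Whether the replicates were separate cultures is given only by the label of biological replicate, and p-values measure the spread between these libraries. The fit was tested on simulated data. No pair of libraries agreed within sampling noise. Pseudocounts were 1 CPM, or 0.5 as an alternative. As alternatives, scaling was by RLE or the upper quartile, and the filter was dropped or set to 1 CPM in 3 libraries. Further alternatives were DESeq2 1.42.0, limma 3.58.1 (voom), a replicate block, length-scaled counts, removal of mitochondrial reads and leaving out each library. Reads carried no molecular identifiers and so do not each stand for a molecule, and intervals and floors hold for counting error alone.

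The members and gene lists were chosen with earlier results of these data known. The genes named were all members, up to 4 higher and 4 lower genes of each list by smallest adjusted p, SRF, MAPK3, MAPK8, MYC, CCND1, ESR1, KLK3 and the 5 genes most like FOS. Some genes that this rule takes are not reported here. Genes that overlap a member, IER5 and PPP1R15A, and lists' genes without reads, were named after their values were seen. Of the markers XBP1 also stands in the integrated stress response list. List medians were the same with genes without reads in a label at their bound, except for the blood cell markers.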

Additional observations from a re-analysis of the deposited data

How the results depend on the processing

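Under RLE scaling, DESeq2, limma voom, length-scaled counts, removal of mitochondrial reads and the filter of 1 CPM, the member counts stayed as reported. Without the filter on low counts 3 members were higher in place of 1, since JUNB (adjusted p = 0.0369, edgeR) and ATF3 (adjusted p = 0.0225, edgeR) then passed, and 9 genes of ERK output and feedback were higher in place of 5. With length-scaled counts 5 repressors were lower in place of 3. Leaving out 1 library at a time gave 1 to 2 members higher, 2 to 3 lower, and 0 to 1 lower by more than a log2 fold change of 2. It gave 4 to 8 ERK output genes lower, with the fewest without DMSO replicate 1, and 1 to 3 AP-1 target genes lower, with 1 without DMSO replicate 2, DMSO replicate 3 or MI503 replicate 2. With an arm of 2 libraries left, edgeR pooled the spread over all libraries. FOSL2, not called, changed sign with upper-quartile scaling (log2 fold change -0.0066), without DMSO replicate 2 (-0.03) and without MI503 replicate 1 (-0.17), where leaving out libraries gave -0.17 to 0.27. JUND changed sign when DMSO replicate 3 was left out (-0.11), and its highest value with a library left out was 0.24. The causes were not tested.

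The numbers of replicates did not pair the libraries: deviations of same-numbered libraries had r of 0.03, 0.21 and -0.01 over 10449 genes, and only number 2 gave each of its libraries the best match. With the replicate block 1 member was higher and 3 were lower, EGR1 had an adjusted p of 0.0499 (edgeR), and 1 AP-1 target gene was lower in place of 2. The block changed no member's call. FOS, EGR1, FOSB and FOSL1 had at most 138 reads in a library, which limits their precision.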

Other observations

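The integrated stress response, which reaches ATF3 through ATF4, was tested as a list of 21 genes. Of these, 8 were higher and 9 lower, and 4 did not pass, beside 31.7% higher and 31.2% lower of all genes tested. These 21 genes had a median log2 fold change of 0.15, and all genes tested had -0.004. XBP1, named next, is also a luminal breast marker, and those markers were all higher under the MI503 label. Among those higher, STC2, a secreted glycoprotein gene, was at 139 ± 46.3 CPM under the DMSO label and 920 ± 120 CPM under the MI503 label, XBP1, the unfolded protein response factor, at 216 ± 64.0 and 1238 ± 211 CPM, and SLC7A5, a leucine transporter gene, at 84.9 ± 48.7 and 628 ± 112 CPM (SD, n = 3 each). Among those lower, PSAT1 and PHGDH, of serine synthesis, had log2 fold changes of -5.55 (SE 0.35) and -1.88 (SE 0.21), and SLC7A11, the cystine transporter gene, and CTH, of transsulfuration, had -4.27 (SE 0.58) and -3.10 (SE 0.51). All 4 were lowest, within the DMSO label, in replicate 3, where SLC7A11 was at 74.5 CPM against 423 and 270 CPM in replicates 1 and 2. The higher genes STC2, XBP1 and SLC7A5 were lowest in that library too, at 85.6, 146 and 31.0 CPM, whereas HSPA5 was highest there, at 1134 CPM. JUND was also lowest in that library, at 111 CPM. Of the 10 members, DMSO replicate 3 was the lowest of its label for 2 and the highest for 4.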
